A study of Citrus unshiu with 2 samples.

Results

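The genes described here are the peroxidases and redox enzymes of satsuma mandarin (Citrus unshiu) stems, compared between light drought and normal watering. They were found by text among the 2568 genes for which the authors deposited descriptions, as those whose RefSeq, UniProt or Pfam description names a peroxidase, glutathione S-transferase, thioredoxin, glutaredoxin, superoxide dismutase, catalase or ascorbate oxidase. The authors labelled that described set as differential genes, and family members outside it were not examined. The rule found 52 genes out of 23159 with expression values. Of the 52, 14 belong to the secreted class III peroxidases and 38 are other redox enzymes. No catalase was among the described genes.

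Both groups are wild-type trees, sampled as mature stems from shoots at day 75. In the light drought group, watering was withheld until the soil dried to a set moisture of around 15%, and the treatment lasted 75 days. The control group received normal water. The labels give 20 trees for treatment and control, grown with confined roots under a plastic tunnel, but not how many trees entered each library. With 1 RNA-seq library in each group, differences could not be set against a spread between replicates, and the conditions were compared without p-values.

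Class III peroxidases are haem enzymes that plant cells secrete into the wall, where they use hydrogen peroxide to oxidise phenolic compounds. They are known for coupling lignin precursors and cross-linking wall polymers in stems, and in some settings for loosening walls through reactive oxygen. The other enzymes mostly work inside the cell. Thioredoxins and glutaredoxins reduce disulfides on target proteins, glutathione S-transferases join glutathione to other molecules, and ascorbate and glutathione peroxidases remove peroxides.

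The light drought library held 31760704 reads in genes and the control library 32856618. Expression is given as RPKM, the reads of a gene scaled to its exon length and to the library total. The log2 ratio of a gene is log2((light drought + 0.5)/(control + 0.5)), computed from RPKM. The added 0.5 makes ratios of weakly expressed genes smaller than the plain ratio. A gene is called higher or lower here when it differs at least 2-fold on that scale with an RPKM of at least 1 in either library. The counting interval is the 95% Clopper-Pearson interval, exact and conditional on the summed reads of a gene, of its plain log2 ratio without the added 0.5. It can therefore lie beyond the log2 ratio of a weak gene, and it covers counting error only, not differences between trees.

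Markers of stem tissue could be checked only where the described genes include them. Fasciclin-like arabinogalactan proteins, of which member 11 is a marker of secondary walls in Arabidopsis, were present, with a summed RPKM over 6 genes of 16.8 in light drought and 31.8 in the control. Member 11 itself (Cs6g04310) was at 1.05 in light drought and 1.21 in the control, and its interval of -0.83 to 0.42 included no change. The largest part of the sum was a member 17 gene (Cs6g13410), at 9.96 in light drought and 17.6 in the control. Words for phloem matched 4 genes with summed RPKM of 7.70 in light drought and 6.77 in the control. Most of that sum came from a gene described as a lectin (Cs2g10930) and a putative F-box protein PP2-B12 (Cs9g10740). The lectin was at 3.95 in light drought and 2.80 in the control, the F-box gene at 1.90 and 1.81. Such matches need not mark phloem. The pair of sieve element occlusion genes went apart, with log2 ratios of 0.31 (Cs5g11280) and -0.82 (Cs3g07110). A list of 12 green tissue genes summed to 1510 in light drought and 606 in the control, but to 392 in light drought and 288 in the control without early light-induced protein 1 (Cs9g07670). In that list the small chain of Rubisco (Cs4g03580) was lower, at 7.30 in light drought and 23.9 in the control. A list of 10 genes matched by words for surface lipids summed to 154 in light drought and 245 in the control. The largest part was a lipid-transfer protein (Cs6g18330), at 91.7 in light drought and 183 in the control. Many of the list are GDSL esterases or lipases, which need not act at the surface. In it 2 were at least 2-fold higher and 3 at least 2-fold lower, against 5.99% and 14.9% of described genes over an RPKM of 1. The median log2 ratio of the list was -0.79. The part of these lists in the ratios below was not tested. No gene of these lists was at 0 in either library. Cellulose synthases of the secondary wall, COBRA-like 4 and laccases were not matched among the described genes.

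Several of the more strongly expressed class III peroxidases were lower in light drought stems. Of the 14, 5 were at least 2-fold lower and none was at least 2-fold higher. The 5 were peroxidase 42, peroxidase 72, peroxidase 16, peroxidase 3 and Cs1g20230, a gene described only as a peroxidase. Only 7 of the 14 reached an RPKM of 1 in either library, and all 5 were among them. Peroxidase 72 passed that minimum only through the control library, so its inclusion favours a lower value. As background, 2.12% of the 15654 genes over the same minimum were at least 2-fold lower, 14.9% of the 2055 described ones, and 12.6% of all 2568 described genes with no minimum. At least 2-fold higher were 0.882%, 5.99% and 4.91% of the same sets. Over the minimum, the described set held 307 of the 332 lower genes and 123 of the 138 higher genes. The share of all genes is therefore not a neutral background for genes drawn from that set. In whole stems, fewer cells of a type and less RNA per cell cannot be told apart.

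The median log2 ratio of the 14 class III genes was -0.57, and that of the 7 over the minimum was -1.39. Described genes had a median of -0.22 over all 2568 and -0.23 over the 2055 above the minimum. These medians describe a pair of libraries, and the described genes include 820 that the authors listed with statistics for the same comparison.

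**Figure D1:**
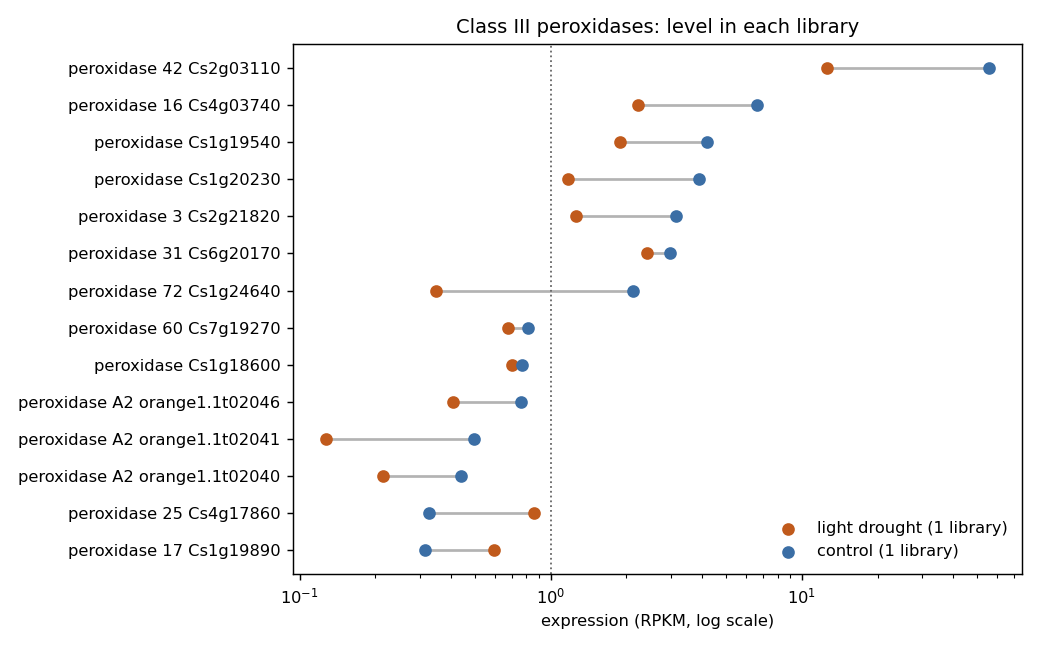
Expression of the 14 class III peroxidases as RPKM on a log axis, with light drought in orange and control in blue, 1 library each; the dotted line marks an RPKM of 1. The 7 genes that cross or lie right of the line have lower values in light drought, 5 of them at least 2-fold lower, with peroxidase 42 highest in both libraries at 12.6 against 55.7, while peroxidase 25 and peroxidase 17 run the other way below it.

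Peroxidase 42 (Cs2g03110, chromosome 2, 1357786 to 1360813, plus strand, 3 exons) was the most abundant class III peroxidase in both libraries. Its RPKM was 12.6 in light drought, from 1081 reads, and 55.7 in the control, from 4962 reads. The log2 ratio was -2.11, with a counting interval of -2.25 to -2.05. It ranked 38th from the lowest ratio among the 15654 genes over the minimum.

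Peroxidase 42 alone made up 49.4% of the summed RPKM of the 14 genes in light drought and 67.5% in the control. That sum was 25.4 in light drought and 82.6 in the control. Without peroxidase 42 the other 13 genes summed to an RPKM of 12.9 in light drought and 26.9 in the control. Their reads, relative to the library totals, gave a log2 ratio of -1.04, with a counting interval of -1.19 to -0.90, so the lower total did not rest on peroxidase 42 alone.

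Peroxidase 16 (Cs4g03740, chromosome 4, 2003484 to 2005803, minus strand, 4 exons) stood at RPKM 2.21 in light drought and 6.63 in the control. Its log2 ratio was -1.39, with a counting interval of -1.96 to -1.22. The values rest on 83 light drought and 257 control reads. The peroxidase Cs1g20230 (chromosome 1, 23341276 to 23343370, minus strand, 4 exons) showed a ratio of nearly the same size. It stood at RPKM 1.17 in light drought and 3.89 in the control, a log2 ratio of -1.40 with an interval of -2.21 to -1.29.

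Peroxidase 72 is named after an Arabidopsis enzyme known for a part in lignification. The mandarin gene (Cs1g24640, chromosome 1, 26931325 to 26932865, plus strand, 4 exons) was at RPKM 0.348 in light drought and 2.12 in the control. The light drought value rests on 14 reads, against 88 in the control. The log2 ratio of -1.63 is held down by the added 0.5, since the counting interval of the plain RPKM ratio ran from -3.53 to -1.78.

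Peroxidase 3 and Cs1g19540 lay on either side of the 2-fold line. Peroxidase 3 (Cs2g21820, chromosome 2, 18911509 to 18913930), whose Arabidopsis namesake is also called RCI3 for its induction by cold, was at RPKM 1.26 in light drought and 3.16 in the control. Its log2 ratio was -1.05. The peroxidase Cs1g19540 (chromosome 1, 22819124 to 22821114) was at RPKM 1.88 in light drought and 4.17 in the control, a ratio of -0.97, just inside the line. Their counting intervals overlapped, at -1.75 to -0.91 and -1.55 to -0.76, and both held the 2-fold value.

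Peroxidase 31 (Cs6g20170), the single class III gene here with 1 exon, was the exception among the 7 genes over the minimum. Its RPKM was 2.42 in light drought and 2.97 in the control. The log2 ratio of -0.25 had a counting interval of -0.68 to 0.08, so no difference was detectable for it at this depth.

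The other 7 genes stayed under an RPKM of 1 in both libraries, and their ratios lay on both sides of 0. Peroxidase 25 (Cs4g17860), whose Arabidopsis namesake has been tied to stem lignin, was at RPKM 0.855 in light drought and 0.327 in the control. Its log2 ratio was 0.71, and 1.39 without the added 0.5, which is past 2-fold. The counting interval was 0.55 to 2.29 from 43 and 17 reads. Peroxidase 17 (Cs1g19890), named after an Arabidopsis enzyme of lignified tissue, was at 0.594 in light drought and 0.317 in the control. Its interval of -0.02 to 1.89 included no change. Peroxidase 60 (Cs7g19270) and the peroxidase Cs1g18600 had log2 ratios of -0.16 and -0.08, also with intervals that included no change.

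The last 3 of these weak genes lie near each other on sequence not placed on a chromosome. Described as peroxidase A2, they are orange1.1t02040, orange1.1t02041 and orange1.1t02046, of which orange1.1t02040 is also described as peroxidase 15-like. The first pair is 1365 bases apart with no gene model between them, and the third lies 45157 bases further on, past 3 gene models. All 3 had log2 ratios below 0, at -0.39, -0.66 and -0.48. The interval of orange1.1t02040, -2.27 to 0.13, included no change. Those of orange1.1t02041 and orange1.1t02046 were -3.53 to -0.62 and -1.84 to -0.02. Together they had 33 reads in light drought and 78 in the control, a log2 ratio relative to the library totals of -1.19 with an interval of -1.83 to -0.59. Over all 7 weak genes the same ratio was -0.09, with an interval of -0.41 to 0.23. The first pair shares a RefSeq symbol, so reads of near-identical stretches may have been split between copies.

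**Figure D2:**
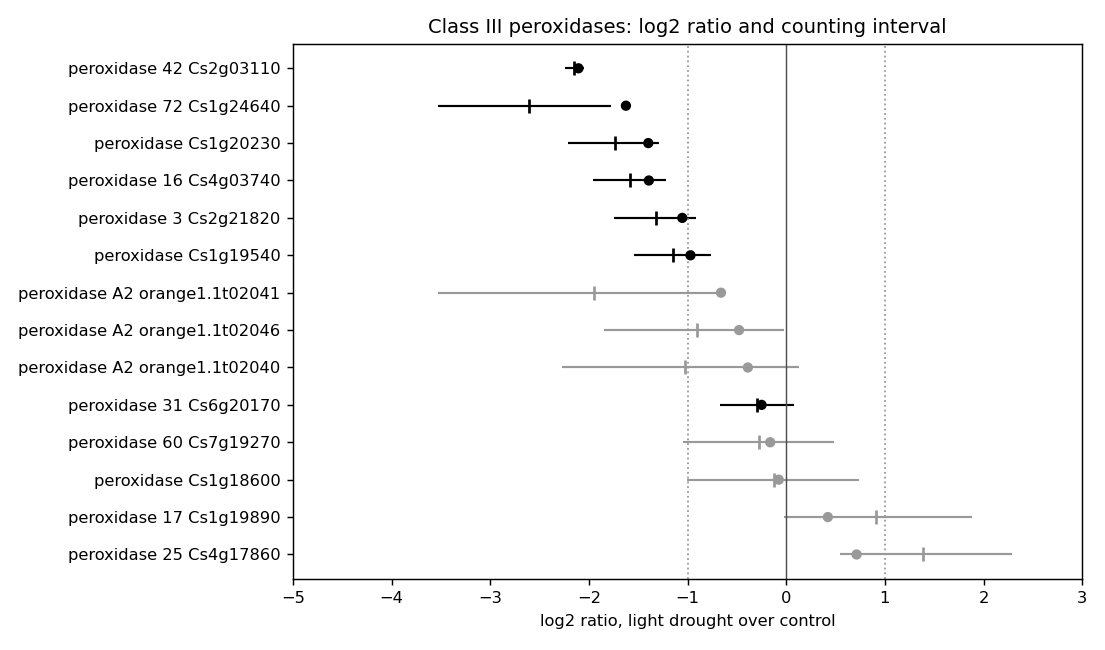
Log2 ratios of light drought over control for the 14 class III peroxidases, with the added 0.5 RPKM (dots) and without it (ticks), and the exact 95% counting interval of the plain ratio (lines); grey marks genes under an RPKM of 1 in both libraries and dotted lines mark 2-fold. Intervals of 8 genes lie below 0, that of peroxidase 25 lies above it, and 5 include it. The matching share over all genes was not computed.

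Counting intervals lay wholly below 0 for 8 of the 14 class III genes, wholly above 0 for 1, and included 0 for 5. The share of all genes with such intervals was not computed, so these counts have no background here. The authors' deposited table gives statistics for 7 of the 14, 6 of them lower in light drought and 1, peroxidase 25, higher. Of all described genes, 31.9% have such statistics in the authors' deposited table, 22.7% lower and 9.27% higher. The log2 fold changes in the authors' deposited table ran from -2.59 for peroxidase 72 to 1.38 for peroxidase 25, with -2.15 for peroxidase 42. The authors' deposited table thus lists Cs1g19540 as lower at -1.15, although it fell short of 2-fold with the added 0.5.

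The 14 were taken from the secretory peroxidase family of InterPro, and all 14 also carry the extracellular region as a Gene Ontology term. The active-site signature of peroxidases was annotated for 11, and it is missing from peroxidase 42, peroxidase 17 and Cs1g18600. The phenylpropanoid biosynthesis pathway of KEGG, which includes lignin precursors, lists 11. Gene models with 4 exons were found for 9 of 14, and the range was 1 to 5 exons. Chromosome 1 holds 5 of them. None of the 14 shared exon bases with another gene model.

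Most matched genes of lignin precursor synthesis stood on the other side of the control. No cinnamyl alcohol dehydrogenase, hydroxycinnamoyltransferase or hydroxylase of the pathway was matched, so only part of it is represented. Of 11 genes over the minimum, 9 had ratios above 0, against 43.6% of described genes. At least 2-fold lower was none, against 14.9% of described genes, and 4 were at least 2-fold higher, against 5.99%. The 4 were the cinnamoyl-CoA reductase-like gene SNL6 (Cs4g02410), at RPKM 66.3 in light drought and 21.7 in the control, a caffeoyl-CoA O-methyltransferase (Cs8g05410), 4-coumarate-CoA ligase 1 (orange1.1t04489) and a phenylalanine ammonia-lyase (Cs6g11940), the entry enzyme of the pathway. The lyase was at RPKM 39.4 in light drought and 18.8 in the control. The methyltransferase was at 34.1 in light drought and 14.8 in the control, and the ligase was at 14.8 in light drought and 6.25 in the control. The exceptions were a caffeic acid O-methyltransferase (orange1.1t01083, log2 ratio -0.73) and cinnamoyl-CoA reductase 2 (Cs3g01140, -0.46). Under the minimum, 4-coumarate-CoA ligase-like 6 (Cs3g08510) was at RPKM 0.174 in light drought and 0.460 in the control, with an interval of -2.36 to -0.52. Cinnamoyl-CoA reductase 1 (orange1.1t02755), also under it, had an interval of -0.78 to 0.87. Both dirigent genes, which guide the coupling of phenolic radicals, had counting intervals that included no change.

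Enzymes that make hydrogen peroxide were represented by 4 described genes, 3 of them over the minimum. The glycolate oxidase GLO1 (Cs5g15000), of photorespiration, was at RPKM 66.9 in light drought and 45.6 in the control, a log2 ratio of 0.55. A pair of amine oxidases, Cs9g06700 and Cs5g06000, had ratios of 0.34 and 0.18, and the interval of Cs5g06000 included no change. The fourth gene, polyamine oxidase 5 (Cs4g14150), stayed under the minimum at RPKM 0.133 in light drought and 0.462 in the control, with an interval of -2.98 to -0.76. No respiratory burst oxidase or germin was matched.

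**Figure D3:**
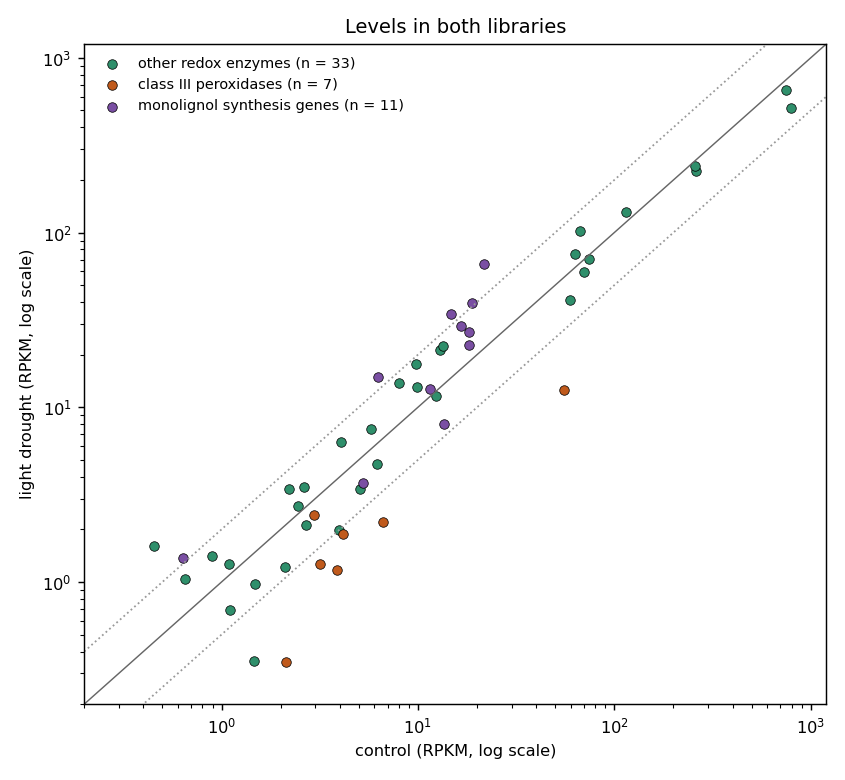
RPKM of redox members and lignin precursor genes over the minimum, with control on the horizontal and light drought on the vertical axis, both on log scales; the solid line marks equal levels and the dotted lines 2-fold. The 7 class III peroxidases (orange) lie below the solid line, 9 of the 11 lignin precursor genes (purple) above it, and 31 of the 33 other redox enzymes (green) between the dotted lines.

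The other redox enzymes mostly stayed within 2-fold of the control. Of the 38, 33 reached the minimum, and 1 was at least 2-fold higher and 1 at least 2-fold lower. Over the same minimum, those shares were 5.99% and 14.9% of described genes and 0.882% and 2.12% of all genes. Of all genes over the minimum, 15184 of 15654 were within 2-fold, so most genes share this trait. Ratios were above 0 for 17 of the 33 and below 0 for 16, against 43.6% and 56.4% of described genes. The authors' deposited table gives statistics for 3 of the 38, against 31.9% of described genes. The median log2 ratio of these other redox enzymes was 0.12 over the 33 and -0.04 over all 38. Their summed RPKM was 2261 in light drought and 2621 in the control. Of the 33, 3 passed the minimum only through light drought and 3 only through the control. The gene at least 2-fold higher passed only through light drought and the gene at least 2-fold lower only through the control. The inclusion of each therefore favours its direction.

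The lower gene was described as an ascorbate oxidase homologue, from the multicopper oxidase family, and the name does not show that it oxidises ascorbate. Cs2g02940 (chromosome 2, 1237153 to 1241291, minus strand, 8 exons) was at RPKM 0.352 in light drought and 1.46 in the control. Its log2 ratio was -1.20, with a counting interval of -2.72 to -1.44. It lies 116494 bases from peroxidase 42, with 16 gene models between them. The other ascorbate oxidase homologues, Cs1g23090 and Cs3g26900, had ratios of -0.60 and -0.42, so all 3 were below 0, at levels under an RPKM of 3 in both libraries.

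The higher gene was 5'-adenylylsulfate reductase 3 (Cs4g10150, chromosome 4, 6813646 to 6815712), which reduces activated sulfate on the way to cysteine and carries a thioredoxin domain. It was at RPKM 1.60 in light drought, from 68 reads, and 0.454 in the control, from 20 reads. The log2 ratio was 1.14, with a counting interval of 1.08 to 2.61. The authors' deposited table gives it a log2 fold change of 1.81, and Cs2g02940 one of -2.05.

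The 5 members named as chloroplastic, 4 thioredoxins and the adenylylsulfate reductase, all had ratios above 0, with a median of 0.69. CDSP32 (Cs3g26690), a plastid thioredoxin first described in potato under drought, was at RPKM 22.4 in light drought and 13.4 in the control, a ratio of 0.72 with an interval of 0.59 to 0.89. Thioredoxin X (Cs7g13660), a plastid reductant of peroxiredoxins in Arabidopsis, was at 21.2 in light drought and 12.9 in the control (0.69). Its model shares 1155 of its 1159 exon bases with Cs7g13650 on the other strand, which had a ratio of 0.52. The sources used here do not say whether counting used strand. Thioredoxin-like 4 (Cs3g23540) had a ratio of 0.36 and thioredoxin M3 (Cs8g06060), which in Arabidopsis affects transport through plasmodesmata, one of 0.42 whose interval included no change.

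Both thioredoxin reductases also stood above the control. NTRC (orange1.1t02320), a plastid enzyme that joins an NADPH-dependent reductase to a thioredoxin, was at RPKM 7.55 in light drought and 5.77 in the control (0.36, interval 0.22 to 0.56). The ferredoxin-thioredoxin reductase variable chain (Cs2g12260), through which photosynthetic electrons reach thioredoxins, was at 13.0 in light drought and 9.85 in the control (0.38, interval 0.23 to 0.58). Most other described genes named chloroplastic showed the same direction. Of 156 described genes over the minimum that are named chloroplastic and are no members, 78.2% had ratios above 0, with a median of 0.47. Of the 12 green tissue genes 11 had ratios above 0, the exception being the small chain of Rubisco, and their part in the thioredoxin ratios was not tested.

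The H-type thioredoxins, which lack a plastid signal and act mostly in the cytosol, did not share a direction. The most abundant, Cs1g24740, was at RPKM 514 in light drought and 789 in the control, a log2 ratio of -0.62 with an interval of -0.65 to -0.59. Thioredoxin H7 (Cs7g04520) was at 59.8 in light drought and 70.1 in the control (-0.23). Thioredoxin H1 (Cs3g25420) was at 131 in light drought and 114 in the control (0.20), but 2740 of its 3339 exon bases are shared with Cs3g25410 on the other strand, which stood at RPKM 115 in both libraries. A pair of thioredoxins with no compartment in their names, Cs3g20630 and Cs5g10830, had ratios of 0.59 and 0.42.

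Other proteins with a thioredoxin domain did not share a direction. The 3 protein disulfide isomerases, which fold secreted proteins in the endoplasmic reticulum, had ratios of -0.28 to -0.08. The most abundant of them, Cs5g33860, was at RPKM 242 in light drought and 258 in the control, and Cs3g19790 was at 70.5 in light drought and 74.5 in the control. A thioredoxin-like gene with a C1 domain (Cs7g07690) was at 13.8 in light drought and 8.0 in the control (0.75, interval 0.63 to 0.95). A gene with thioredoxin and tetratricopeptide repeat domains (orange1.1t03073) had a ratio of -0.36, with an interval of -0.56 to -0.23.

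Glutaredoxins were mixed. The most abundant, Cs5g02010, described by a glutaredoxin domain and named after a fruit fly gene, was at RPKM 102 in light drought and 66.5 in the control, a ratio of 0.61 with an interval of 0.56 to 0.68. A glutaredoxin-like gene (Cs4g18320) was at 2.00 in light drought and 3.97 in the control, a ratio of -0.84 with an interval of -1.42 to -0.57. Glutaredoxin-C9 (Cs2g16150), which in Arabidopsis binds TGA transcription factors, was at 11.5 in light drought and 12.4 in the control, with an interval that included no change. The neighbours described as monothiol glutaredoxin-S1, 4145 bases apart on chromosome 5, had ratios of -0.51 (Cs5g32580) and 0.12 (Cs5g32590), and their intervals of -1.02 to -0.13 and -0.48 to 0.77 overlapped.

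None of the 8 glutathione S-transferases matched was 2-fold apart, and 4 had ratios above 0. The phi-class F9 (Cs7g17630) was at RPKM 41.3 in light drought and 59.2 in the control (-0.51, interval -0.63 to -0.41). A glutathione S-transferase described by family only (Cs7g28340) was at 75.8 in light drought and 63.1 in the control (0.26), and the theta-class T1 (Cs5g03810) was at 3.39 in light drought and 2.21 in the control (0.52). The other 5 lie on unplaced sequence between 55487318 and 55665286, with a summed RPKM of 2.64 in light drought and 3.07 in the control. Of these 5, 3 share a protein record, so their reads may have been split, and all 5 intervals included no change.

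Enzymes that remove peroxides and superoxide inside the cell stayed under 2-fold. A phospholipid hydroperoxide glutathione peroxidase (Cs5g03830), which reduces lipid peroxides, was at RPKM 654 in light drought and 752 in the control (-0.20, interval -0.23 to -0.18). Ascorbate peroxidase 2 (Cs8g17370) was at 225 in light drought and 262 in the control (-0.22, interval -0.25 to -0.18), and the weak ascorbate peroxidase 6 (Cs7g05430) was at 1.41 in light drought and 0.890 in the control (0.45). A gene with a copper/zinc superoxide dismutase domain (Cs8g15520), a family that also holds the copper chaperone of the enzyme, was at 17.7 in light drought and 9.80 in the control (0.82, interval 0.64 to 1.06). It had the largest ratio of the other redox enzymes after the adenylylsulfate reductase. Alpha-dioxygenase 2 (orange1.1t00037), a fatty acid oxidising enzyme matched through an animal haem peroxidase domain, stayed under the minimum at 0.410 in light drought and 0.863 in the control. Its log2 ratio was -0.58, with a counting interval of -1.77 to -0.41. The authors' deposited table gives this gene a log2 fold change of -1.07.

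**Figure D4:**
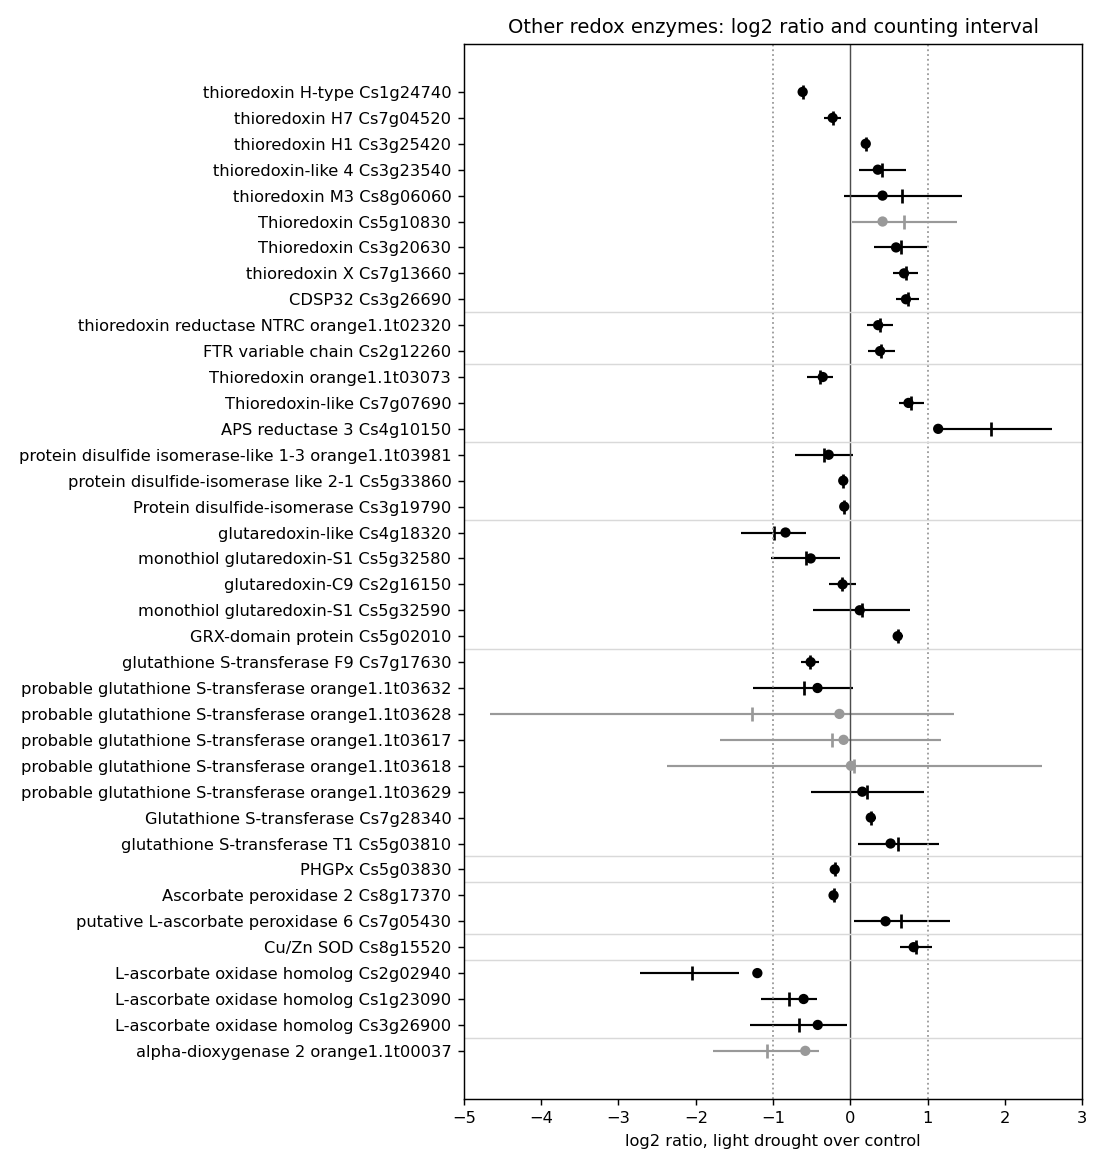
Log2 ratios of light drought over control for the 38 other redox enzymes, grouped by class, drawn as dots with the added 0.5 RPKM, as ticks without it, and with the exact 95% counting interval of the plain ratio as lines; grey marks genes under the minimum and dotted lines mark 2-fold. Both thioredoxin reductases and the 5 chloroplast-named members lie right of 0, the 3 ascorbate oxidase homologues left of it.

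The list of ascorbate and glutathione supply matched 4 described genes, of which 3 are metallothioneins, metal-binding proteins that supply neither compound. Inositol oxygenase 1 (Cs1g16030), of a proposed route from inositol towards ascorbate and wall sugars, was at least 2-fold lower, at RPKM 16.4 in light drought and 37.0 in the control (-1.15). The abundant metallothionein Cs8g18470 was at 742 in light drought and 1021 in the control (-0.46). The type 3 metallothionein Cs1g07330 had a ratio of -0.50 and Cs8g01420 one of 0.26. No ascorbate or glutathione reductase was matched.

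Class III peroxidases were the weaker set in level. The median RPKM of the 14 class III genes was 0.778 in light drought and 1.47 in the control. That of the 38 others was 4.13 in light drought and 4.55 in the control. The difference between the sets in ratio was not tested, since each condition has 1 library.

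**Figure D5:**
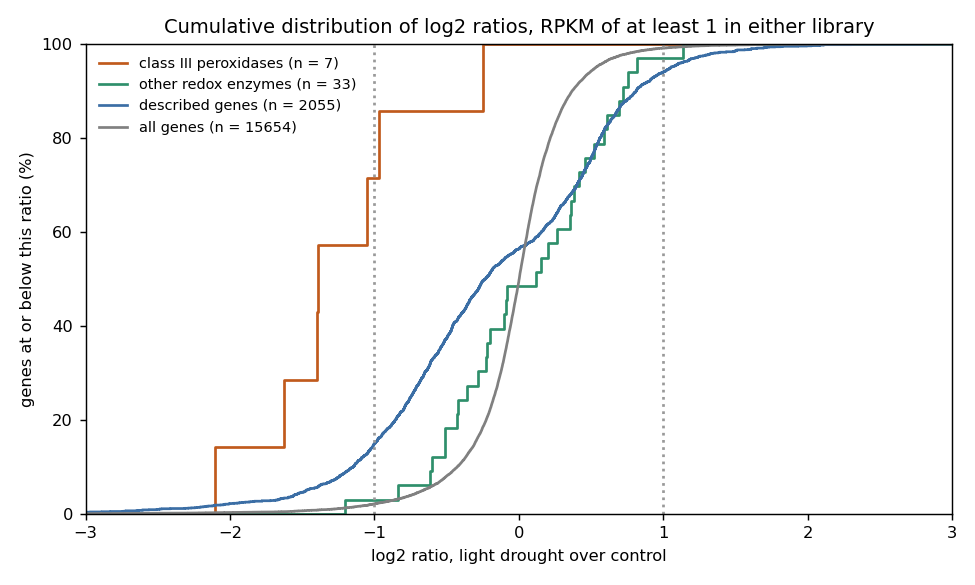
Share of genes at or below each log2 ratio, for genes with an RPKM of at least 1 in either library: 7 class III peroxidases, 33 other redox enzymes, 2055 described genes and all 15654 genes; dotted lines mark 2-fold. The class III curve lies left of the others with a median of -1.39, and the other redox enzymes have a median of 0.12.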

How the data were processed

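Per the labels' protocols, a stranded mRNA kit was used on 2 µg of total RNA. The submitters' processing notes list Trimmomatic 0.36. The sources used here name no aligner, counting tool, genome build or strand setting, and coordinates are as deposited. The authors deposited RPKM for 23159 genes and, in a second table, descriptions of 2568 of them. For 820 of these the authors deposited a log2 fold change with a p-value and a false discovery rate. Every RPKM above 0, multiplied by exon length and library total, came within 0.01 of a whole read (100% of values in both libraries). At the median gene length of 1692 bases, 3 reads correspond to an RPKM of 0.0558 in light drought and 0.0540 in the control. Intervals and floors cover counting error only, since reads carry no molecular identifiers.

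The members and gene lists were chosen with earlier results of these data known. All class III members were named, and of the other classes every member at least 2-fold apart, every member with the authors' statistics and the 3 most abundant; further members were named to account for all 52. Class III members were taken from the secretory peroxidase family of InterPro. Scripts were tested on simulated data. Alternatives were other pseudocounts, minimums, thresholds, scalings and definitions. Tools were pandas 2.3.3, matplotlib 3.10.9, scipy 1.17.1 and numpy 2.4.6 under Python 3.11.15.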

Additional observations from a re-analysis of the deposited data

How the results depend on the processing

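No paired analysis was possible because the groups hold 1 library each, which also means that no library could be left out. The count of class III peroxidases at least 2-fold lower, 5, was 2 with a minimum RPKM of 5, which leaves 2 genes, and 1 at a 4-fold threshold, by construction. It ranged from 4 to 6 under the other alternatives, and the count higher was 0 under every alternative run. The class III median of -1.39 was -0.57 with no minimum, which adds the 7 weak genes. For the other redox enzymes, the 1 higher and 1 lower gene became 0 and 0 with a pseudocount of 1, with a minimum RPKM of 5 and at 4-fold, and 7 and 4 at 1.5-fold. The higher count was also 0 without the 5 genes matched only through a domain, which include the adenylylsulfate reductase. The planned definition by a numbered UniProt name could not be run, since the UniProt names carry no number. Definitions by numbered RefSeq name and with lost letters restored were chosen after seeing the data. Of 230 ratios of single members under other settings, 225 moved by less than the distance from the middle to the end of their counting interval, 5 moved by more, all under equal sums, and none reversed. Equal sums put the median of kept genes at -0.04. Depth limits the weak genes most, and intervals included no change for 5 of 14 class III and 9 of 38 other members. No share over all genes was computed for these counts.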

Other observations

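Some family names in the deposited descriptions have lost their first letter, so that 4 genes described only by the glutathione S-transferase family were not found by the text rule. Among them, Cs7g04600 was more abundant than any of the 52 members in light drought. It stood at RPKM 1012 in light drought and 541 in the control, a log2 ratio of 0.90 with a counting interval of 0.87 to 0.94. Cs5g15160 was at 185 in light drought and 242 in the control (-0.38). Cs9g10440 was at 39.2 in light drought and 31.0 in the control (0.33), and Cs6g14550 was at 10.3 in light drought and 8.54 in the control (0.26). None of the 4 was 2-fold apart, and with them the median log2 ratio of the other redox enzymes over the minimum was 0.15 over 37 genes.

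Described genes matched by words for other organs mostly had low ratios in the same libraries as the class III peroxidases. Of 15 genes over the minimum matched by words such as pollen, seed storage or floral homeotic, 13 had ratios below 0 and 8 were at least 2-fold lower, against 56.4% below 0 and 14.9% at least 2-fold lower among the 2055 described genes over the minimum. Some are expansins matched through a pollen allergen domain, and others are described only by a pollen protein domain. Such matches need not mark another organ. The lipid-transfer protein Cs6g09950 is also in the surface list. A vicilin-like gene (Cs8g17030) was at RPKM 0.588 in light drought and 7.55 in the control, and the floral homeotic gene DEFICIENS (Cs1g24860) was at 0.593 in light drought and 2.96 in the control. The summed RPKM of all 17 genes matched was 2474 in light drought and 1732 in the control, set mostly by a pair of pollen allergen domain genes that were higher in light drought (Cs5g07852 and Cs5g07856). Their part in the peroxidase ratios was not tested.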
